A study of Homo sapiens with 6 samples.

Results

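Small structural RNAs do their work as RNA and not as templates for protein. 7SL RNA is the scaffold of the signal recognition particle (SRP), which binds the signal sequences of nascent secretory proteins and takes their ribosomes to the endoplasmic reticulum. 7SK RNA holds the kinase P-TEFb inactive and so restrains transcription elongation, RMRP and RPPH1 are the RNA subunits of the ribonucleases MRP and P, and SCARNA2 is a Cajal body RNA of the class that guides modification of spliceosomal RNAs. 7SL, 7SK, RMRP and RPPH1 are made by RNA polymerase III. None of these RNAs is polyadenylated like an mRNA, and library kits that enrich poly(A) RNA recover little of them.

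The levels of 6 such RNAs, RN7SL1, RN7SL2, RN7SK, RMRP, RPPH1 and SCARNA2, were taken from a table of 57150 rows by their gene symbols. RN7SL2 had been picked by its low value in the KD-labelled column, so that its difference is a description here, and the other 5 were listed as further structural RNAs. The rows numbered 8, because RPPH1 and SCARNA2 each had 2 rows at the same locus, and the rows of a symbol were summed. The study compared K562 cells, a human erythroleukemia line, in 3 pools transfected with siRNAs that target the mRNAs of both αCP1 and αCP2 (KD) and in 3 pools transfected with control siRNAs (CTRL). Cells were collected 72 h after transfection, and both groups were otherwise handled alike as far as the labels say. Within a group the pools differed in siRNA. By the paper, the KD pools received 2 distinct siRNAs and the CTRL pools 3. The paper describes CTRL-1 and CTRL-2 as siRNAs against an unrelated mRNA, GLD-2. Some libraries of each group came from an earlier study of the authors. The table gives 1 FPKM value (fragments scaled for gene length and library depth) and 1 estimated count per gene for each group. The spread between pools is therefore unknown, and the differences below carry no test. In such bulk samples fewer cells of a type and less RNA per cell cannot be told apart.

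Column totals of estimated counts were 13699340 (labelled KD) and 11680567 (labelled CTRL). Both are below the number of mapped read pairs that the paper lists for any single library. Whether the estimated counts were scaled or averaged is not given. The counting intervals below take them as counts of fragments, and their widths hold only if that is so. A level is given below as CPM, the counts per 1000000 counts of the column total, and a difference as the log2 ratio of the count shares, the KD-labelled column over the CTRL-labelled column, with a 95% exact binomial (Clopper-Pearson) interval that covers counting error only. For the 14238 genes with a mean of the 2 counts of at least 10, the median log2 ratio was -0.22 (0.01 with median-of-ratios size factors, which scale the columns by their typical gene), and the differences of the members are also given relative to this median. The columns keep their labels because the mRNAs of the siRNA targets were not both lower. The log2 ratio was -0.25 for PCBP1, which encodes αCP1, and 0.37 for PCBP2, which encodes αCP2. Relative to the median of all genes these were -0.04 and 0.59, so PCBP1 was near the typical gene and PCBP2 above it. Of 9 markers of K562 cells, 6 had an FPKM under 1 in both columns, among them the erythroid transcription factors GATA1, TAL1 and KLF1 at 0 counts. Of 6 epithelial markers, 4 had a mean of at least 10 counts, with KRT8 at 29724 and 14126 counts and EPCAM at 70 and 59. The epithelial markers KRT19 and CDH1 did not, at 0 counts in both columns and at 3 and 9 counts. The embryonic globin HBE1 (1176 and 286 counts) and the transferrin receptor TFRC (7611 and 3594 counts), also K562 markers, were present. Defining erythroid markers of the labelled line were thus at 0, and the part of this in the results below was not tested.

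The 7SL copies are described first because their near-identity bears on each 7SL value. RN7SL2 (ENSG00000265150) lies on chromosome 14 from 50329271 to 50329567 on the minus strand of GRCh37, where it also overlaps an exon of a longer gene on the same strand, ENSG00000282885. The table gives RN7SL1 (ENSG00000258486) a locus shared with other genes, chromosome 14 from 50043390 to 50081390. A search of that locus with the RN7SL2 sequence found 1 full-length match and 3 shorter ones. The full-length match lies on the plus strand in an intron of RPS29, a ribosomal protein gene on the minus strand. RN7SL3 (ENSG00000266037) is a further copy on the same chromosome, and the 3 copies have the same length of 297 nt.

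The match in the RN7SL1 locus differs from RN7SL2 at 4 positions, an identity of 98.65%. RN7SL3 differs from RN7SL2 at 11 positions, an identity of 96.3%. Of the 198 windows of 100 nt, the length of a read, that RN7SL2 holds, 106 are identical in the match in the RN7SL1 locus and all 198 differ from it by no more than 3 bases, the number of mismatches per read that the authors allowed in mapping. In RN7SL3, 24 windows are identical to RN7SL2 and 131 differ by no more than 3 bases. The authors also limited mismatches within the seed, a shorter stretch of the read, and that limit was not applied to these windows. A single read that falls in an identical window cannot be assigned to a copy by its sequence. The libraries were sequenced as read pairs, and the other read of a pair may cover a differing position, which these windows do not take into account.

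RN7SL2 was listed at 618 counts in the KD-labelled column and at 3847 in the CTRL-labelled column. Its level was 45.1 CPM in the KD-labelled column, with an exact Poisson interval from 41.6 to 48.8, and 329 CPM in the CTRL-labelled column, with an interval from 319 to 340. The share was thus 7.30-fold lower in the KD-labelled column, a log2 ratio of -2.87 with a counting interval from -2.99 to -2.75. Relative to the median of all genes the log2 ratio was -2.65. RN7SL2 was chosen on this value. Of the 14238 genes, 54 were as low as RN7SL2 or lower, RN7SL2 included.

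RN7SL1 was listed at 0 counts and an FPKM of 0 in both columns, where 3 counts would be 0.219 CPM in the KD-labelled column and 0.257 CPM in the CTRL-labelled column. The locus that the table gives for RN7SL1 holds a further 7SL row, RN7SL593P (ENSG00000266422), which was at 1001 counts in the KD-labelled column and at 2244 in the CTRL-labelled column. The ratio of count to FPKM, which depends on the effective length of a gene, was 1.31 in the KD-labelled column and 1.26 in the CTRL-labelled column for RN7SL593P, and was the same to these digits for RN7SL2 and for RN7SL3. The RN7SL593P row thus had a ratio like that of the 297-nt 7SL copies, and the locus holds 1 full-length match. RPS29 in the same locus also had ratios of 1.31 and 1.26, so the ratio does not set a 7SL row apart from it. The annotation used here lists neither RN7SL1 nor RN7SL593P by these IDs, so the 0 of the row named RN7SL1 is the value of that row and cannot be read as absence of the 7SL copy at this locus.

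RN7SL593P, which the choice of members did not use, was lower in the KD-labelled column as well. Its level was 73.1 CPM there and 192 CPM in the CTRL-labelled column, a log2 ratio of -1.39 with a counting interval from -1.50 to -1.29, or -1.18 relative to the median. RN7SL2 and RN7SL593P share most of their sequence, so these are not independent measurements. The intervals of their log2 ratios did not overlap, and the difference between the ratios, RN7SL2 minus RN7SL593P, was -1.47. RN7SL2 had 0.617 counts per count of RN7SL593P in the KD-labelled column and 1.71 in the CTRL-labelled column. The order of the 2 rows was therefore opposite in the 2 columns. How the authors' counting split shared reads is not given in the sources used here, and its part in this order was not tested.

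The plot of 7SL composition shows how few rows carry the family. The table holds 851 rows named as 7SL genes or pseudogenes, of which 129 had a count above 0 and 5 had a mean of at least 10 counts. RN7SL2 made up 32.8% of all 7SL counts in the KD-labelled column (exact binomial interval 30.7 to 35.0) and 60.7% in the CTRL-labelled column (59.5 to 61.9). RN7SL593P made up 53.1% and 35.4%. Summed over all rows, 7SL was at 138 CPM in the KD-labelled column and at 542 CPM in the CTRL-labelled column, a log2 ratio of -1.98 with an interval from -2.05 to -1.90.

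**Figure D1:**
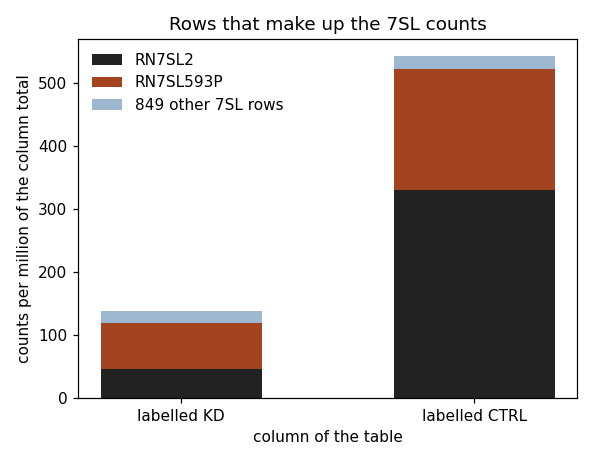
Stacked bars of the CPM of the column total for RN7SL2, RN7SL593P and the 849 other 7SL rows in the KD- and CTRL-labelled columns, with 1 value per row and column. The total was 138 CPM against 542 CPM, and the part of the 849 other rows was 19.4 CPM against 20.8 CPM.

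The remaining 849 7SL rows together held 266 counts in the KD-labelled column and 243 in the CTRL-labelled column. Their log2 ratio was -0.10, with an interval from -0.36 to 0.16, and it was 0.13, of the opposite sign, with median-of-ratios size factors. The sum of these rows therefore did not share the low value of RN7SL2 and RN7SL593P. RN7SL3, whose product is also an SRP RNA, had 15 counts in the KD-labelled column and 12 in the CTRL-labelled column. Its log2 ratio was 0.09 with an interval from -1.10 to 1.32, too wide to tell a change in either direction. RN7SL731P, a pseudogene row in the locus of KIF1B, had 59.7 and 44.7 counts and a log2 ratio of 0.19 with an interval from -0.40 to 0.78. RN7SL793P had 7 and 13 counts and a log2 ratio of -1.12 with an interval from -2.69 to 0.31, which includes the value of RN7SL593P as well as equal shares. Of the 5 7SL rows with a mean of at least 10 counts, 3 were thus at -1 or less (10.4% of all genes). RN7SL2 was chosen for its low value, RN7SL593P is not independent of it, and RN7SL793P was at -0.89 with size factors. Nothing about 7SL rows in general can be read from this count.

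Genes that share the locus of RN7SL1 and RN7SL593P went both ways. RPS29, which encodes a protein of the small ribosomal subunit, had 10986 counts in the KD-labelled column and 6900 in the CTRL-labelled column, a log2 ratio of 0.44. LRR1, which encodes a leucine-rich repeat protein, had 230 and 353 counts and a log2 ratio of -0.85. RPL32P29, a ribosomal protein pseudogene, had 66.5 and 6.27 counts. The library kit does not mark strand, so reads of RPS29 introns and of the 7SL copy on the opposite strand cannot be told apart by strand.

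The other 4 members with counts had positive log2 ratios, with RN7SK the highest of them. RN7SK (ENSG00000202198), on chromosome 6 from 52860418 to 52860748 in an exon of its own gene, had 297 counts in the KD-labelled column and 147 in the CTRL-labelled column. Its level was 21.7 CPM, with an exact Poisson interval from 19.3 to 24.3, against 12.6 CPM, with an interval from 10.6 to 14.8. The share was 1.72-fold higher in the KD-labelled column, a log2 ratio of 0.78 with an interval from 0.49 to 1.08, or 1.01 with size factors. A larger or equal log2 ratio was found for 10.4% of all genes, so RN7SK was not far out in the distribution.

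For the further copies of 7SK the counting intervals with column totals included equal shares. The table holds 295 further 7SK rows, and together they had 115 counts in the KD-labelled column and 79.9 in the CTRL-labelled column, a log2 ratio of 0.29 with an interval from -0.13 to 0.72. RN7SKP259, the 1 pseudogene row among them with a mean of at least 10 counts, had 78 and 49 counts and a log2 ratio of 0.44 with an interval from -0.09 to 0.99. These intervals overlap that of RN7SK. With size factors the log2 ratios were 0.52 for the 295 rows and 0.67 for RN7SKP259, so the inclusion of equal shares depends on the scaling.

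RMRP (ENSG00000199916; chromosome 9 from 35657748 to 35658015), the RNA of RNase MRP, which cleaves precursor ribosomal RNA, had 306 counts in the KD-labelled column and 202 in the CTRL-labelled column. Its level was 22.3 CPM against 17.3 CPM, a log2 ratio of 0.37 with an interval from 0.11 to 0.63, or 0.59 relative to the median. RPPH1, the RNA of RNase P, which trims the 5′ ends of precursor tRNAs, had 48.0 counts in the KD-labelled column and 29.0 in the CTRL-labelled column over its 2 rows. Its log2 ratio was 0.50 with an interval from -0.20 to 1.21, which includes equal shares. RPPH1 shares its locus with PARP2, which encodes a DNA repair enzyme and had 516 and 734 counts, a log2 ratio of -0.74.

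SCARNA2 (chromosome 1 from 109642815 to 109643241) had 38.0 counts in the KD-labelled column and 28.0 in the CTRL-labelled column, and nearly all of them were in the row ENSG00000238881. The log2 ratio was 0.21 with an interval from -0.53 to 0.97. With column totals the intervals of SCARNA2 and RPPH1 thus included equal shares. With median-of-ratios size factors the log2 ratios were 0.44 for SCARNA2 and 0.73 for RPPH1. Whether the interval of RPPH1 includes 0 therefore depends on the scaling. For RN7SK and RMRP the intervals lay above 0, and for RN7SL2 the interval lay below 0, but no interval covers the spread between pools.

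**Figure D2:**
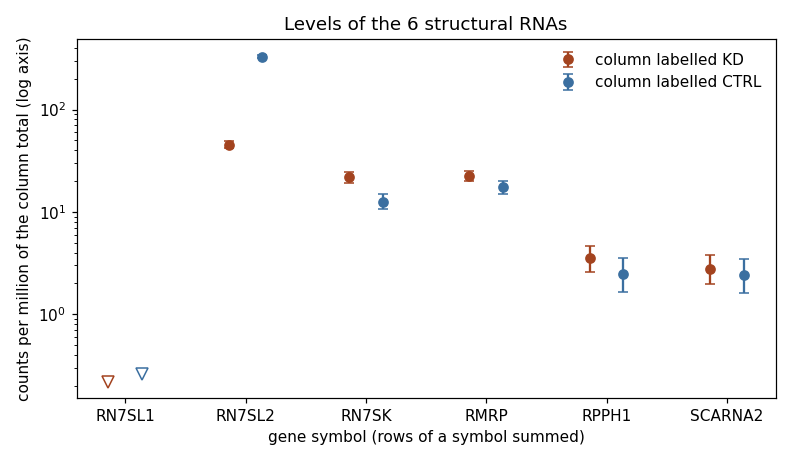
CPM of the column total (log axis) for the 6 structural RNAs in the KD- and CTRL-labelled columns, 1 value each, with bars for the 95% exact Poisson interval of counting error. RN7SL1 was at 0 counts, and its open triangles stand at the level of 3 counts; RN7SL2 is the 1 RNA with a lower value in the KD-labelled column, at 45.1 against 329 CPM.

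Levels between the RNAs can be compared only per length. By FPKM in the CTRL-labelled column the order was RN7SL2 (3049), RMRP (240), RN7SK (86.8), RPPH1 (15.7), SCARNA2 (9.92) and RN7SL1 (0). In the KD-labelled column the order was the same, at 471, 343, 170, 24.3, 13.2 and 0, but RN7SL2 was closer to RMRP. This closeness holds for FPKM, which for short genes depends on the effective length used. By counts RN7SL2 had 618 and RMRP 306 in that column, and their ratios of count to FPKM were 1.31 and 0.892. Whether neighbours in this order differ beyond the spread between pools could not be determined from 1 value per group. The ratio of count to FPKM was higher in the KD-labelled column for each member with counts, for example 0.892 against 0.843 for RMRP and 1.74 against 1.69 for RN7SK, whereas the median over all genes of the same quotient, KD- over CTRL-labelled, was 1.002. FPKM ratios of these short RNAs therefore differ slightly from ratios of their counts.

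Against all genes, the members did not stand out as a group. With a mean of at least 10 counts, 5 of the 6 members passed the filter, and RN7SL1 did not. A log2 ratio of -1 or less was found for 1 of them, RN7SL2, which the choice of members fixed, and for 1478 of the 14238 genes (10.4%). A log2 ratio of 1 or more was found for 0 of them and for 948 genes (6.66%). With median-of-ratios size factors 849 genes were lower and 1525 higher by this threshold, and RN7SK was then among the higher ones, at 1.01. Nothing particular to the members can be read from such counts.

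**Figure D3:**
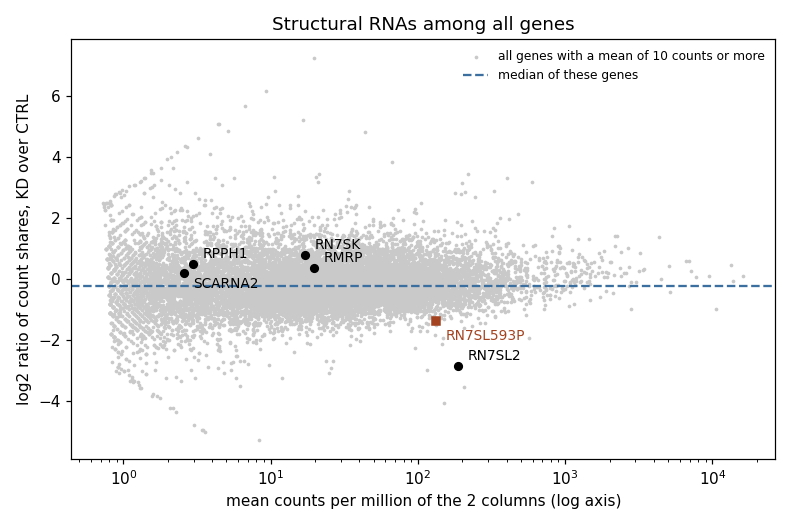
Log2 ratio of count shares (KD- over CTRL-labelled column) against the mean CPM of the columns (log axis) for 14238 genes, with the 5 members that passed the filter in black, RN7SL593P as a square and the median of -0.22 as a dashed line. RN7SL2 and RN7SL593P lie below the bulk of genes of their level, and RN7SK, RMRP, RPPH1 and SCARNA2 lie within it.

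Other genes of a like level were ranked by their difference. Of 1925 genes with a mean count within 2-fold of that of RN7SL2, the 5 nearest in log2 ratio were U2AF2 (351 and 2393 counts, log2 ratio -3.00), SERPINE2 (-2.26), VAT1 (-3.54), AXL (-2.13) and HNRPDL (-1.94). U2AF2 encodes the splicing factor U2AF65, and its distance from RN7SL2 was 0.13. In separate experiments the paper depleted U2AF65 from K562 cells with siRNAs. The mRNAs of the labelled siRNA targets, PCBP1 and PCBP2, were at -0.25 and 0.37. Whether the low U2AF2 value bears on what the columns hold was not tested. The likeness rests on 2 values per gene.

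Structural RNAs outside these families mostly had no counts. The table holds 142 rows of U1, 89 of U4, 32 of U5, 1322 of U6 and 180 of U7 small nuclear RNAs, 861 of Y RNA, 10 of vault RNA and 520 of 5S ribosomal RNA, and each of these rows was listed at 0 counts in both columns. Several of these RNAs, such as U1, U6 and 5S ribosomal RNA, are abundant in cells, so the 0 values cannot be read as absence from the cells. Of 5823 structural RNA rows with an annotated length, 0 of 4379 with a length of up to 150 nt had a count above 0. The share was 2.69% of 335 rows over 150 and up to 250 nt, 14.6% of 1079 rows over 250 and up to 350 nt, and 36.7% of 30 longer rows. The 5 members with counts are all longer than 250 nt and so lie in the classes in which counts were most frequent.

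Among small Cajal body RNAs, 4 of 57 rows had a mean of at least 10 counts, SCARNA2 included. SCARNA7 had 31 counts in the KD-labelled column and 12 in the CTRL-labelled column, a log2 ratio of 1.14 with an interval from 0.14 to 2.24. SCARNA9 had 43 and 94 counts and a log2 ratio of -1.36 with an interval from -1.91 to -0.82. It shares its locus with KIAA1731 (-1.23), C11orf54 (-0.45), MED17 (-0.32) and TAF1D (-0.08). SCARNA7 shares its locus with KPNA4 (-0.71) and KRT8P12 (-0.01). SCARNA13 had 15 and 18 counts and a log2 ratio of -0.49 with an interval from -1.58 to 0.58. The small nucleolar RNA row SNORA59B had 11 and 9 counts and a log2 ratio of 0.06 with an interval from -1.35 to 1.51. The product of U3 small nucleolar RNA genes takes part in processing of ribosomal RNA. Of rows with U3 names, 3 had a mean of at least 10 counts. They had 27 and 27 counts for SNORD3A, 31 and 12 for SNORD3B-2 and 35 and 10 for SNORD3B-1. Their log2 ratios were -0.23, 1.14 and 1.58. Their ratios of count to FPKM in the KD-labelled column were 6.41, 6.27 and 4.94, against 1.31 for RN7SL2. These rows thus have a longer effective length, and their counts cannot be read as those of U3 RNA itself. Second rows of the same symbols in the same loci did not pass the filter. These U3 genes are near-identical copies whose reads can be shared, so single rows are uncertain.

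**Figure D4:**
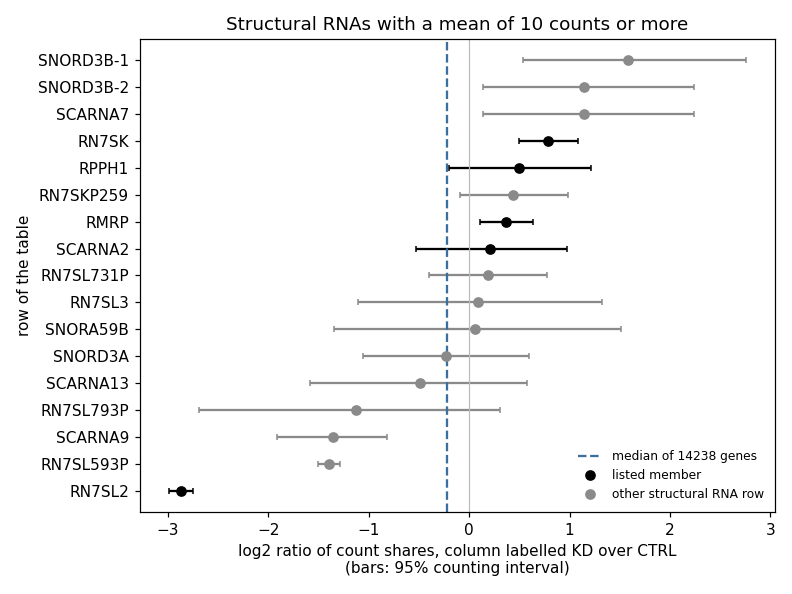
Log2 ratio of count shares (KD- over CTRL-labelled column) for the 17 structural RNA rows or members with a mean of at least 10 counts, with bars for the 95% counting interval, the listed members in black, other rows in grey and the median of 14238 genes (-0.22) as a dashed line. RN7SL2 is at -2.87 and RN7SL593P at -1.39, and the wide interval of RN7SL793P (-1.12) includes both the value of RN7SL593P and the median.

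The mRNAs of the protein partners were read from lists of SRP, 7SK, RNase P and MRP, Cajal body and RNA polymerase III genes. The shares past the threshold over all 14238 genes were 6.66% (higher) and 10.4% (lower), and each list is small, so that its counts can be read only against these shares. For the SRP, 6 of 6 mRNAs passed the filter, 0 were higher or lower by 1 or more (6.66% and 10.4% of all genes), and the median was -0.29 against -0.22 for all genes (-0.06 against 0.01 with size factors). SRP54, the subunit that binds signal sequences, had 580 and 747 counts and a log2 ratio of -0.60. SRP19, which binds 7SL RNA and helps SRP54 to join, was at -0.07. The receptor mRNAs SRPR and SRPRB were at -0.45 and 0.04. The mRNAs of the particle thus did not show a difference of the size seen for RN7SL2 or RN7SL593P.

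Of the 7 mRNAs for 7SK partners and P-TEFb, 2 were higher by 1 or more (6.66% of all genes), 0 were lower by 1 or more (10.4% of all genes), and the median was 0.21. HEXIM1, which inhibits P-TEFb when bound to 7SK, had 1376 counts in the KD-labelled column and 584 in the CTRL-labelled column, a log2 ratio of 1.01 with an interval from 0.87 to 1.15. HEXIM2, a second inhibitor of the same kind, had 102 and 29.0 counts and a log2 ratio of 1.59 with an interval from 0.98 to 2.23. LARP7, which binds the 3′ end of 7SK and stabilises it, was at -0.41, and MEPCE, which caps 7SK, was at 0.21. The kinase CDK9 was at 0.26, while its cyclins CCNT1 and CCNT2 were at -0.53 and -0.97.

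For proteins of RNase P and MRP, 11 rows of 10 symbols passed the filter, 0 were higher and 1 was lower by 1 or more (6.66% and 10.4% of all genes), and the median was -0.10. The 1 row lower by 1 or more was the second of 2 rows named RPP14 (ENSG00000255154), at -1.19, and the other RPP14 row was at -0.01. It was no longer past the threshold with median-of-ratios size factors. POP7 and RPP21 had the highest log2 ratios, 0.54 and 0.58. Of 10 mRNAs for Cajal body and small nucleolar RNA-binding proteins, 1 was higher and 0 were lower by 1 or more (6.66% and 10.4% of all genes). The higher mRNA was NHP2, which encodes a core protein of pseudouridylation guides, with 2443 and 839 counts and a log2 ratio of 1.31. COIL, which encodes the Cajal body scaffold coilin, was the lowest at -0.61.

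For RNA polymerase III and its factors, 22 of 22 mRNAs passed the filter, with a median of -0.06, 3 higher and 1 lower by 1 or more (6.66% and 10.4% of all genes). The higher ones were SNAPC2 (1.37) and SNAPC4 (1.20), subunits of the complex that binds the promoters of 7SK, RMRP and RPPH1, and MAF1 (1.09), the repressor of RNA polymerase III. POLR3G, a subunit of the polymerase, was lower at -1.14, and it was no longer past the threshold with median-of-ratios size factors. SSB, which encodes the La protein that binds the 3′ ends of new RNA polymerase III transcripts, was at -0.89. These lists were described by counts and medians, and no test was made of them.

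**Figure D5:**
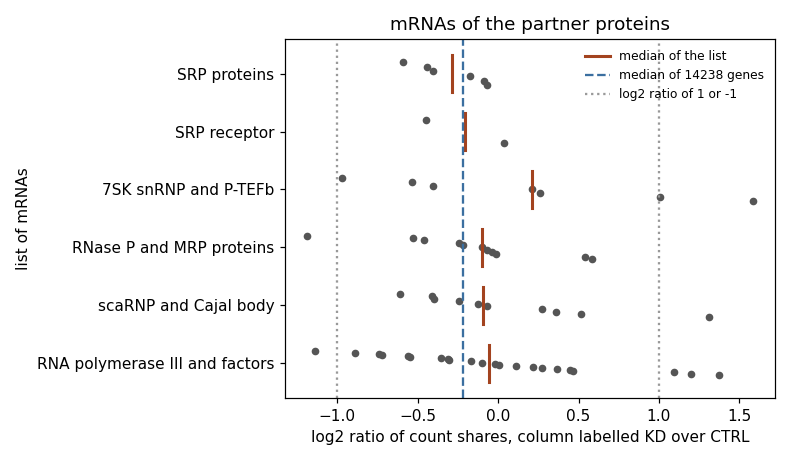
Log2 ratio of count shares (KD- over CTRL-labelled column) for each mRNA of 6 lists of partner proteins, 1 point per row of the table, with the median of each list as a vertical bar and the median of 14238 genes (-0.22) as a dashed line. The SRP list lies between -0.60 and -0.07, and HEXIM1 (1.01) and HEXIM2 (1.59) are the points past 1 in the 7SK list.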

How the data were processed

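RNA-seq libraries of K562 cells were made with a TruSeq RNA kit and sequenced as 100-nt read pairs. The authors mapped the reads to hg19 and Ensembl transcripts and computed estimated counts and FPKM with Cuffdiff, and the submitters' processing notes name TopHat 1.4.1 and Cuffdiff 2.2.0. The deposited table holds 1 estimated count and 1 FPKM value per gene and group, and the sources used here do not say how values of 3 libraries became 1. The group averages, the maximum and minimum FPKM and the authors' own fold changes, p-values and FDR in the table were not used.

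The members and lists were chosen with earlier results of these data known. The genes named are the members, the structural RNA rows with a mean of at least 10 counts, the extremes of the partner lists or those past a log2 ratio of 1, and the 5 genes most like RN7SL2. Further genes, such as other subunits and genes of shared loci, were named after their values were seen.

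Counts, rounded to whole numbers for intervals, were divided by the column totals of 13699340 and 11680567. Where a count was under 3, 3 was used. The calculations were tested on simulated data. Tests planned for single libraries were not run, since no column holds a single library. Alternatives were median-of-ratios size factors, TMM factors (edgeR 4.0.16), totals without the 10 genes with the most counts, other filters, and FPKM with a pseudocount of 1 or 0.1. The 7SL copies were compared on GRCh37 with GENCODE release 44, their sequences are not reported here, and BLAST 2.17.0 was used to search the locus of RN7SL1. Loci of the table, which counts from 0, were written from 1. R 4.3.3 and Python 3.11.15 were used, with scipy 1.17.1, pandas 2.3.3 and numpy 2.4.6.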

Additional observations from a re-analysis of the deposited data

How the results depend on the processing

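The sign of the log2 ratio was the same under each scaling and FPKM setting for RN7SL2, RN7SK, RMRP, RPPH1 and SCARNA2. The log2 ratio of RN7SL2 was -2.64 with median-of-ratios size factors, -2.64 with TMM factors and -2.69 with FPKM and a pseudocount of 1 or 0.1, against -2.87 with column totals. RN7SL1 and RN7SL2 summed gave these same values, since RN7SL1 was at 0. With all 7SL rows summed the log2 ratio was -1.98, and with RN7SL2 and RN7SL593P summed, an alternative chosen after seeing the data, it was -2.14. The shift between scalings is that of the median of all genes, from -0.22 with column totals to 0.01 with size factors and with TMM factors. Genes higher by 1 or more numbered 1525 with size factors, 1492 with TMM factors and 617 with a mean of at least 50 counts, against 948. Genes lower by 1 or more numbered 849, 866 and 872 under the same settings and 350 with FPKM and a pseudocount of 1, against 1478. The cause was not tested except that a higher filter leaves fewer genes.

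No paired analysis was possible because single libraries have no column of their own. Leaving out each library was not run for the same reason. Depth limits RPPH1, SCARNA2, RN7SL3 and RN7SL793P, whose counting intervals with column totals include equal shares. For RPPH1 this inclusion depends on the scaling.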

Other observations

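The share of genes past a log2 ratio of 1 in either direction varied with gene length. Among 63 genes with an annotated exon length of up to 350 nt and a mean of at least 10 counts, 17.5% were higher by 1 or more on the log2 scale and 12.7% were lower by as much, with a median of -0.03. Among 681 genes over 350 and up to 1000 nt, the shares were 15.1% and 16.0%, with a median of -0.07. Among 2867 genes over 1000 and up to 3000 nt, they were 12.3% and 10.01%. Among 10176 genes over 3000 nt, the shares were 4.27% and 9.98%, with a median of -0.27. The mean counts of these classes were not matched, and no explanation was tested.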
